A study of Mus musculus with 4 samples.

Results

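The heat shock proteins and DnaJ cochaperones were described across 4 mouse pluripotent stem cell cultures. Members were taken by symbol, as every gene of the Hsp90, Hspa, Hspb, Hspd, Hspe, Hsph, Dnaja, Dnajb and Dnajc families with a probe set that the array's annotation gives to a single gene. This gave 72 of 18193 measured genes, and each gene was read from its probe set with the highest mean. The members were 2 Hsp90, 13 Hspa, 1 Hsph, 8 Hspb, 2 Hspd and Hspe, 4 Dnaja, 13 Dnajb and 27 Dnajc genes, and 2 genes named for binding other heat shock proteins, Hspbp1 and Hspbap1. The symbol also brought in Hspb11, which encodes a part of the intraflagellar transport machinery of cilia.

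The study profiled RNA on 4 Affymetrix arrays, with 1 array for each of 3 nuclear transfer embryonic stem cell (NT-ESC) lines and 1 for the induced pluripotent stem cell (iPSC) clone they came from. Adenoviral vectors had been used to reprogram fibroblasts of the tail tip into the clone, and its nuclei were transferred to make the cloned blastocysts that gave the NT-ESC lines. All 4 cultures therefore descend from 1 reprogrammed clone, and all grew in a medium of serum and LIF over irradiated feeder fibroblasts of mouse embryos, which were taken away by preplating before RNA was collected. The labels call the lines subclones and do not say whether each is a separate derivation, no line had a second array, and tests thus measure only the spread between these arrays.

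Chaperones of the Hsp70 family (the Hspa genes) bind unfolded stretches of other proteins and release them in a cycle driven by ATP. DnaJ proteins, also called J proteins or Hsp40, deliver clients and start ATP hydrolysis, and Hsp90 acts later on partly folded clients such as kinases and receptors. Small heat shock proteins (Hspb) hold unfolded proteins without ATP, and Hspd1 with its lid Hspe1 forms the folding chamber of mitochondria. Heat shock factor HSF1 switches on the inducible members in the cytosol when unfolded proteins build up, and a separate unfolded protein response serves the endoplasmic reticulum (ER). Pluripotent stem cells are known for high levels of many chaperones.

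Levels are given on the log2 intensity scale, set by an assumed array mean of 7. Of the members, 61 had a mean at or above 6.83, the median of all probe sets, and are called bright, while 11 were dim. The cytosolic Hsp90, Hsp90aa1, had levels of 13.67, 13.58 and 13.58 in NT-ESC lines 1, 2 and 3 and 13.60 in the iPSC clone. Hspa8, the constitutive cytosolic Hsp70, stood at 13.32, 13.31 and 13.00 in the lines and 13.30 in the clone. Hspd1, the mitochondrial chaperonin, stood at 12.96, 13.02 and 13.25 in the lines and 13.07 in the clone. All 3 were bright on every array. Hspb1, a small heat shock protein, was also bright, at 12.80, 12.88 and 12.71 in the lines and 12.92 in the clone. Dim members included Dnajb7 (mean level 4.30) and Hspa1l (mean level 4.37), both known from testis. The inducible Hspa1a was dim on every array, at 5.73, 5.83 and 5.98 in the lines and 5.69 in the clone. Brightness depends on the probe, so these levels are not an order of abundance between genes. The annotation names no probe set for Hsp90ab1 alone, and all 3 for Dnajc19 name a second gene, so neither was analysed here.

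Most members differed little between arrays. The widest gap between any of the arrays had a median of 0.21 on the log2 scale over the members. Dnajb1, Hspa1b and Dnajc6 were the members whose levels spanned at least 1.5-fold, 3 of 72 against 2.38% of all genes. Hspbp1 and Dnajb11, an ER J protein, were among the steadiest, with ranges of 0.05 and 0.04. NT-ESC line 3 differed most from the others: 2 members differed by at least 1.5-fold between lines 3 and 1, 1 between lines 3 and 2, and 3 between line 3 and the clone. Over all genes these shares were 1.21%, 1.02% and 1.28%, so line 3 stood apart over all genes. No member differed that much between any pair of the other arrays, where 0.126% to 0.368% of all genes did. The counts at 1.5-fold hold only for the assumed array mean used here. A higher mean widens every difference, and a lower one narrows it. Some members lay near this limit. Dnajc6 spanned 1.54-fold over the arrays, and it differed by 0.55 on the log2 scale between line 1 and the clone. Hspb8 differed by 0.53 between line 2 and the clone. The counts were not repeated with other assumed means. The heat map of all members shows line 3 as the column with the strongest colours.

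**Figure D1:**
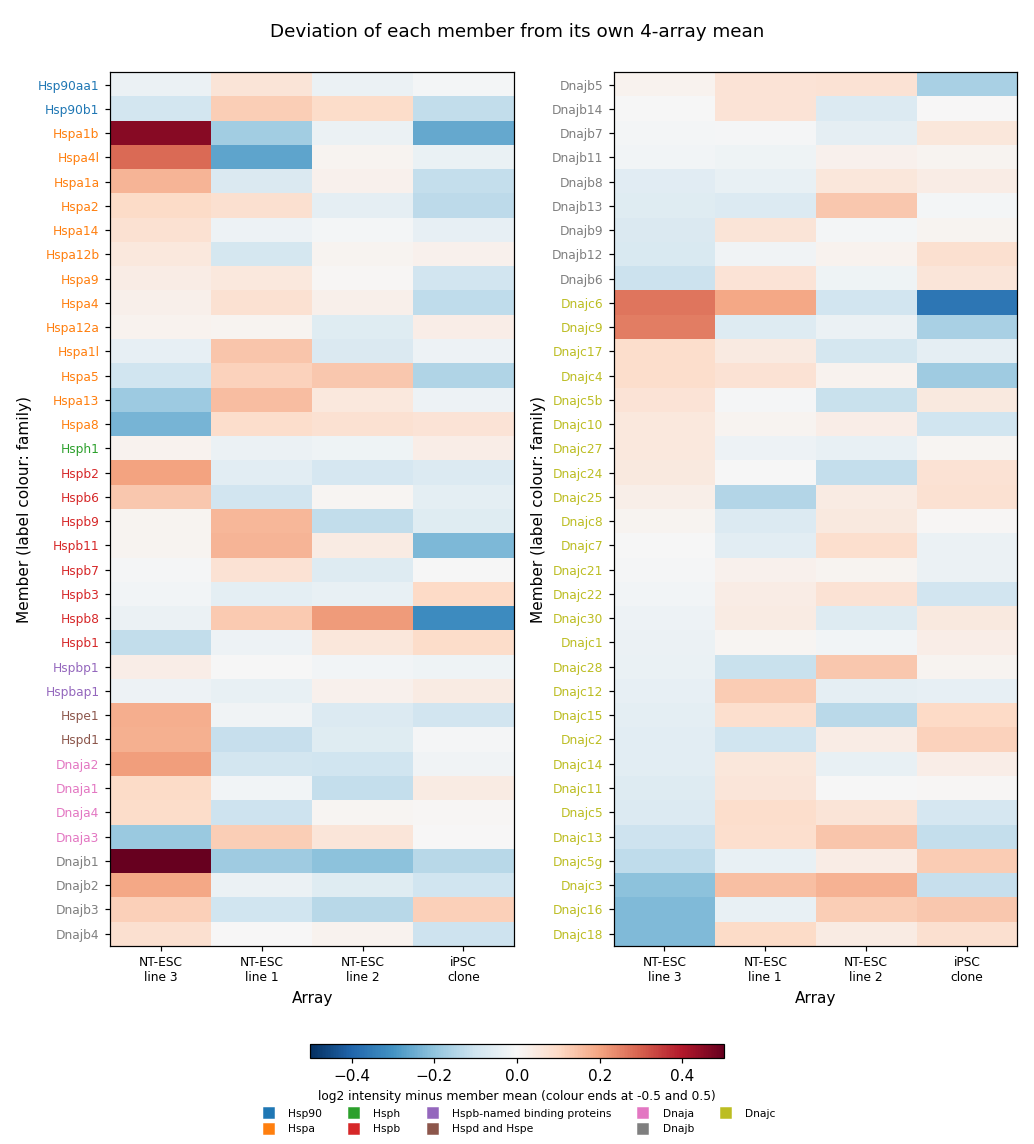
Log2 level of each of the 72 members on each array minus that member's mean over the 4 arrays, with families in blocks and the NT-ESC lines in the left columns, the iPSC clone in the right one. Dnajb1 and Hspa1b in line 3 are the strongest positive cells, and most members are pale on every array.

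Dnajb1, the main inducible J protein of the cytosol, rose in NT-ESC line 3. Its level was 10.23 in line 3, against 9.53 in line 1, 9.50 in line 2 and 9.57 in the iPSC clone. Line 3 lay well above the other 3 arrays, which averaged 9.53 ± 0.03 (SD, n = 3). The log2 difference was 0.70 ± 0.08 (SE), or 1.63-fold, with an adjusted p of 0.0247 in limma's test over all genes. A second Dnajb1 probe set gave 0.80. It was the only member called, among 0.159% of all genes called higher and 0.302% called lower in line 3, 84 genes in all. With any of the other 3 arrays left out the difference stayed between 0.69 and 0.72, but its adjusted p was then 0.35 to 0.60, and no gene was called. The call was also lost on the deposited scale (adjusted p = 0.172) and with every probe set tested on its own (adjusted p = 0.0505).

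Hspa1b, the inducible cytosolic Hsp70, had the next greatest difference upward. Its level was 8.55 in line 3, against 7.92 in line 1, 8.07 in line 2 and 7.84 in the clone. Line 3 was above all others by more than they differed among themselves (7.95 ± 0.11, SD, n = 3). The log2 difference was 0.61 ± 0.11 (SE), and limma's adjusted p of 0.0773 missed the threshold. Its other probe sets gave 0.57 and 0.58, and with the probe sets of each gene averaged Hspa1b was called. Hspa1a, a near copy of Hspa1b beside it on the chromosome, stood at 5.98 in line 3, against 5.73, 5.83 and 5.69 in line 1, line 2 and the clone. Whether the Hspa1b probe sets also hybridise Hspa1a was not tested.

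The other HSF1-inducible members had smaller differences in line 3. Of the 14 on the list, 13 were measured, and line 3 was the highest array for 8 of these and the lowest for 2. Over all genes line 3 was the highest array for 25.7% and the lowest for 28.8%. At an unadjusted p under 0.05, 6 of the 13 were higher and 1 was lower, where all genes gave 5.8% and 5.76%. Their median log2 difference was 0.13, beside -0.01 for all genes, and it ran from 0.10 to 0.16 over the alternatives on the log2 intensity scale. Hspd1 and Hspe1, the mitochondrial pair, each stood 0.24 higher, with Hspe1 at 12.73 in line 3, against 12.53, 12.48 and 12.45 in line 1, line 2 and the clone. Both were highest in line 3, with adjusted p of 0.341 for Hspd1 and 0.299 for Hspe1 by limma. Hspa4l, an Hsp110-type exchange factor, stood 0.38 higher (adjusted p = 0.272 by limma). Its other 4 probe sets, all dim, gave -0.06 to 0.17. Dnaja1, a cytosolic J protein, and Dnajb4 were also highest in line 3, at 11.19 and 8.04, but each by 0.13 or less.

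The HSF1-inducible members did not all go the same way. Hspa8 was lowest in line 3, at 13.00 against 13.32 in line 1, 13.31 in line 2 and 13.30 in the clone. The 3 others were within 0.02 of each other, and the log2 difference was -0.31 ± 0.08 (SE), with an adjusted p of 0.163 by limma. It was called with a trended and robust variance prior, and its other probe sets gave -0.25 to 0.04. Hspb1 was lowest too, at 12.71 against 12.80, 12.88 and 12.92 in line 1, line 2 and the clone. Hsph1, the cytosolic Hsp110, differed by 0.03, and Hsp90aa1 by -0.04.

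**Figure D2:**
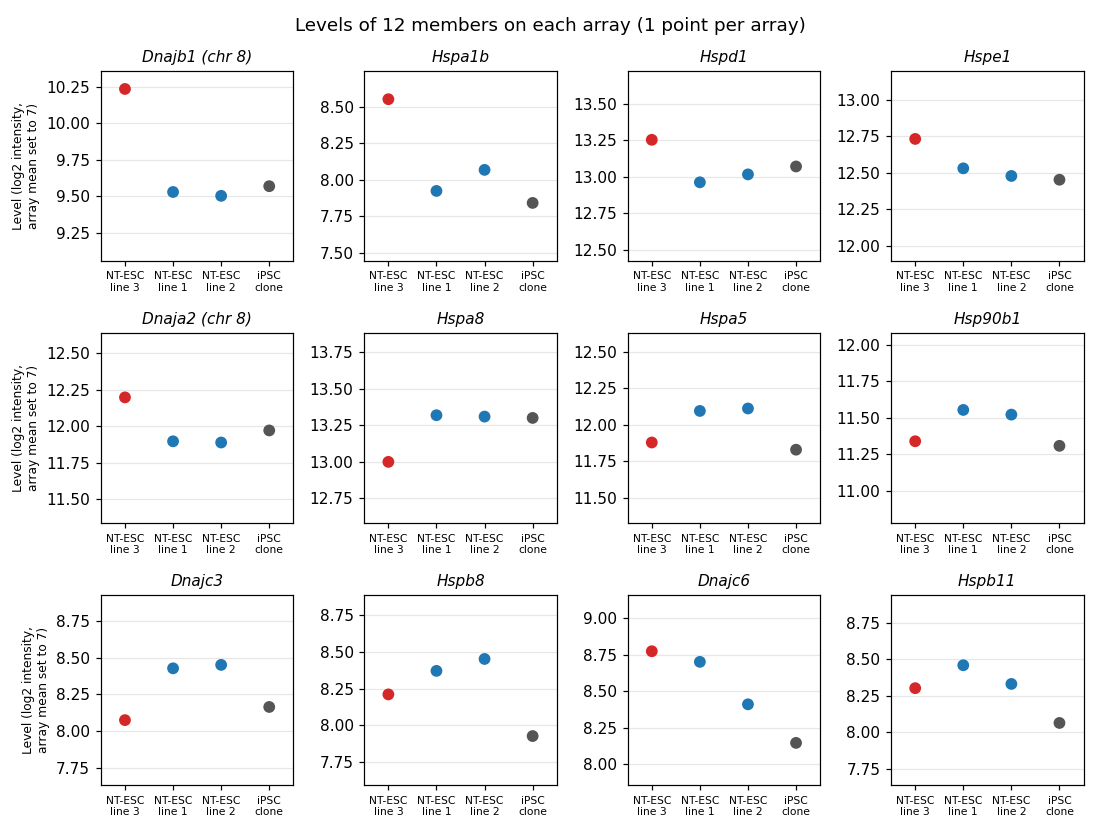
Levels on the log2 intensity scale of 12 members in NT-ESC lines 3, 1 and 2 and the iPSC clone, 1 point for each array, with the same span of the vertical axis in each panel. Dnajb1 and Hspa1b stand apart in line 3, Hspa8 is lowest there, and the probe sets shown for Hspa5, Hsp90b1 and Dnajc3 are higher in lines 1 and 2 than in both line 3 and the clone. Those for Hspb8 and Hspb11 are as well.

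Promoters were read for the members, whatever their direction in line 3. RefSeq windows from 250 bases before to 50 after the start site (build GRCm38.p6) were found for 59 of the 72 members. The heat shock element was searched on both strands as the 3-unit form, GAANNTTCNNGAA or TTCNNGAANNTTC, and as the shorter 2-unit form inside it, GAANNTTC or TTCNNGAA. The longer form was in the windows of 4 of 59 members (6.78%), Hspd1, Hspe1, Hsph1 and Dnajb6, and in 0.609% of 14452 measured genes. The shorter form was in 16 of 59 members (27.1%) and 15.0% of measured genes. Among HSF1-inducible members 9 of 11 held the shorter form, and the windows of Dnajb1 and Hspa4l did not. These members were listed as inducible by HSF1, so that share says nothing about line 3. Those with a match included Hspa1b, at 0.61 in line 3, and Hspb1, at -0.16. Hspd1 and Hspe1 face away from each other at 1 shared promoter, and 285 bases of their windows are the same. A match is a description of the letters, and having none says nothing about binding.

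The windows of Hspe1 (chr1:55087898-55088197, plus strand), Hspa1b (chr17:34959189-34959488, minus strand) and Dnajb1 (chr8:83607925-83608224, plus strand) are shown, as examples that differ in their matches. Line 3 was the highest array for each. Hspa4l, Dnajc6, Dnajc9, Dnaja2 and Dnajb2 had greater differences in line 3 than Hspe1, and their windows held neither form. Capitals mark the 3-unit form in Hspe1, where overlapping matches begin 89 and 84 bases before the start site, and the 2-unit form in Hspa1b, which begins 104 bases before it. Dnajb1 has no capitals.
Hspe1: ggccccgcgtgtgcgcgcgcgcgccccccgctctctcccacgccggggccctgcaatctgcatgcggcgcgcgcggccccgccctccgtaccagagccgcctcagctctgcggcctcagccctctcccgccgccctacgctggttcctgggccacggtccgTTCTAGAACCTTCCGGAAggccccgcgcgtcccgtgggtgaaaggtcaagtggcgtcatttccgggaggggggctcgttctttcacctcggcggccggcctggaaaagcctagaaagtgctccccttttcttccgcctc
Hspa1b: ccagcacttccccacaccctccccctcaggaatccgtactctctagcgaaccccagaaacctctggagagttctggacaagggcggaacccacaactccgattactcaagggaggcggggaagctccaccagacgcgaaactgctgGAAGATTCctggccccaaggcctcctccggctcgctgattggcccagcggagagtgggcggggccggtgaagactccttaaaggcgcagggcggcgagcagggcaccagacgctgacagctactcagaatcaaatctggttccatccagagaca
Dnajb1: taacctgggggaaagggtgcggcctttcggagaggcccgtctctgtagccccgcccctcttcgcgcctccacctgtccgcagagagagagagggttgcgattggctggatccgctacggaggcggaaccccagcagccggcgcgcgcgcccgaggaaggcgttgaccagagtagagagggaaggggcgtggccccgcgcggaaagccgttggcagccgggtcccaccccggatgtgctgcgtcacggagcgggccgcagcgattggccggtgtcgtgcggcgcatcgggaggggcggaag
The Hspa1a window matched that of Hspa1b at 98.7% of 300 positions, with T44C, C47T, G249T and T276C as the 4 differences, counted from the 5′ end and with the base of Hspa1b first.

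Members of the ER had a median on the other side of 0 in line 3. Of 11, line 3 was the lowest array for 5 and the highest for 1, Dnajc10, beside 28.8% and 25.7% of all genes. Their median log2 difference was -0.10, and -0.11 to -0.08 over the alternatives on the log2 intensity scale. Dnajc3, which serves the ER Hsp70 as a cochaperone and is also known as an inhibitor of a stress kinase, stood at 8.07 in line 3, against 8.43, 8.45 and 8.16 in line 1, line 2 and the clone. The difference was -0.27 ± 0.13 (SE), with an adjusted p of 0.480 by limma, and its other bright probe sets gave -0.09 and -0.06. Hspa13, an Hsp70 relative of microsomes, was lowest in line 3, at 7.35 against 7.69 in line 1, 7.59 in line 2 and 7.51 in the clone (adjusted p = 0.393 by limma). Dnajb9, Dnajb12 and Dnajc1 were also lowest there, by 0.04 to 0.10, and none was called. A second bright probe set of Dnajc1 went the other way, with line 3 as the highest array, at 0.19. Those of Hspa13 and Dnajb12 gave -0.03 and -0.05, and line 3 was not the lowest array on either.

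For the main ER chaperones, lines 1 and 2 were the higher arrays on the brightest probe set of each gene. Hspa5, also known as BiP, the ER Hsp70 that binds and silences the sensors of the unfolded protein response, stood at 11.88 in line 3, against 12.10 in line 1, 12.11 in line 2 and 11.83 in the clone. Hsp90b1, the ER Hsp90 also called Grp94, stood at 11.34 in line 3, against 11.55, 11.52 and 11.31 in line 1, line 2 and the clone. On these probe sets, as on the brightest of Dnajc3, lines 1 and 2 lay above both line 3 and the clone. Other bright probe sets did not all follow: a second for Hsp90b1 read 10.94 in line 3, against 11.10 in line 1, 10.90 in line 2 and 10.93 in the clone. One each for Hspa5 and Dnajc3 had line 1 below the clone, at 10.22 against 10.28 for Hspa5 and 7.49 against 7.58 for Dnajc3. Dnajb11 did not have this order either, at 9.91 in line 3, against 9.91 in line 1, 9.95 in line 2 and 9.94 in the clone. These gaps were seen after the values were known, and no test of lines 1 and 2 together was run. On their brightest probe sets, members outside the ER also had lines 1 and 2 above line 3 and the clone, among them Dnaja3, Dnajc13 and Hspb8. A second bright probe set had line 2 as the lowest array for Dnaja3 (8.92) and Dnajc13 (8.02), while the others of Hspb8 kept the order. How common that order is over all genes was not counted.

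A motif of the ER was searched in the same windows. The ER stress element, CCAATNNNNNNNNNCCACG or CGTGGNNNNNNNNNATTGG on the other strand, which is known to be bound by ATF6 and XBP1 with NF-Y, was in the windows of 3 of 59 members (5.08%), Hspa5, Hsp90b1 and Dnajc3, and of 0.138% of measured genes. Capitals mark it in Hspa5 (chr2:34771840-34772139, plus strand, 65 bases before the start site), Hsp90b1 (chr10:86705395-86705694, minus strand, 212 and 107 bases before it) and Dnajc3 (chr14:118937682-118937981, plus strand, 105 bases before it). These 3 are shown because they are the members with a match.
Hspa5: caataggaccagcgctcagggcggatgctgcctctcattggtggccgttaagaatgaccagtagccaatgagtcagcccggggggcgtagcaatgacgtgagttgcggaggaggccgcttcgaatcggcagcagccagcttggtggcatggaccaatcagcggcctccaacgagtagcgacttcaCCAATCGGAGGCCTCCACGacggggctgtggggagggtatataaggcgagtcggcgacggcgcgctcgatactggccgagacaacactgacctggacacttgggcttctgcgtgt
Hsp90b1: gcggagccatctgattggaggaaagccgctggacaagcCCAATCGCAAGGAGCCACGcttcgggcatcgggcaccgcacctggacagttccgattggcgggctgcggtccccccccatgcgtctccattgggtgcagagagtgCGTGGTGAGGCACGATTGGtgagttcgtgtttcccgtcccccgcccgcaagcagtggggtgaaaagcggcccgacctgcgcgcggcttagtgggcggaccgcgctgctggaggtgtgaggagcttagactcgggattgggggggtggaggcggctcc
Dnajc3: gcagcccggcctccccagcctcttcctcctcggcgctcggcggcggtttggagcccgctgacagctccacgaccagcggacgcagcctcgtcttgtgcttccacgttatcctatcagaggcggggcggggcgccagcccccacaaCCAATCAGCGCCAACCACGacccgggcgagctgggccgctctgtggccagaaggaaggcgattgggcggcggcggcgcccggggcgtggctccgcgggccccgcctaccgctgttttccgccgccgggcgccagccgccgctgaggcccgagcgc

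Other genes of ER folding and the unfolded protein response, a list with no members in it, were also mostly lowest in line 3. Line 3 was the lowest array for 14 of 20 and the highest for 1, and the median log2 difference was -0.14. All 20 are bright, and over bright genes line 3 was the lowest array for 31.1% and the highest for 26.7%. Xbp1, a transcription factor of the response, stood at 10.10 in line 3, against 10.54, 10.47 and 10.36 in line 1, line 2 and the clone. Ern1, the sensor also called IRE1, stood at 7.58 in line 3, against 7.87, 7.96 and 7.73 in line 1, line 2 and the clone. Line 3 was below all others for both, at log2 differences of -0.36 and -0.28 and adjusted p of 0.188 and 0.373 by limma. Herpud1, an ER degradation factor, was the one gene of the list highest in line 3, at 0.24.

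**Figure D3:**
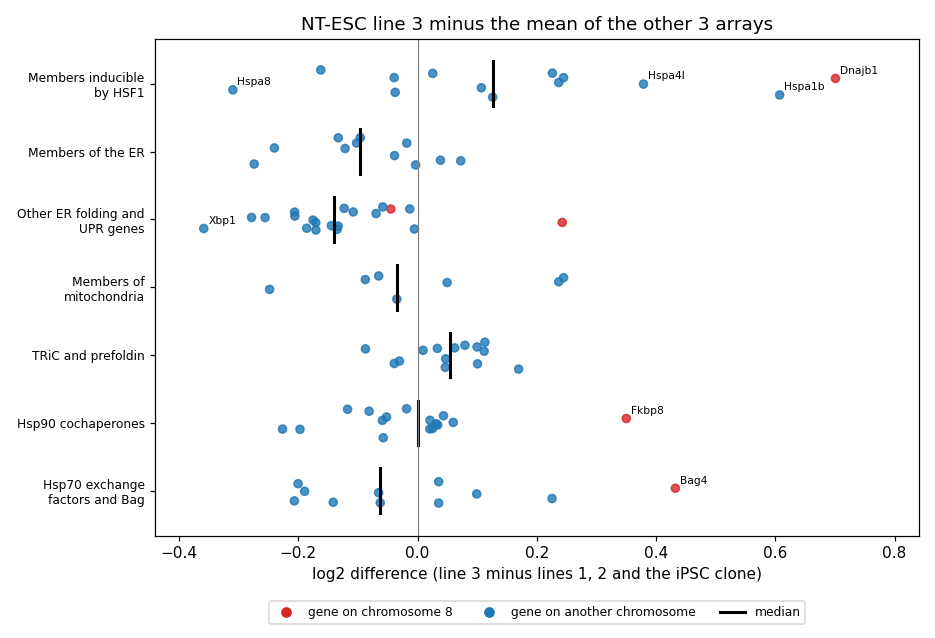
Log2 difference of NT-ESC line 3 from the mean of lines 1, 2 and the iPSC clone, 1 point for each gene, for lists of members and of other chaperone genes, with bars at the medians. HSF1-inducible members lie mostly right of 0 and ER genes left of it, and red marks genes of chromosome 8.

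Dnajb1 and Dnaja2 are the members on chromosome 8, where line 3 read higher as a whole. Over 636 bright genes of that chromosome the median log2 difference of line 3 was 0.27, with quartiles of 0.11 and 0.41, and 9 reached that of Dnajb1. Dnaja2, a constitutive cytosolic J protein, stood at 12.20 in line 3, against 11.90, 11.89 and 11.97 in line 1, line 2 and the clone. Its difference of 0.28 was near that median, and all 4 of its probe sets gave 0.28 to 0.44. The part of the chromosome in the Dnajb1 difference was not tested. Without these members line 3 was the highest array for 22 of 70 and the lowest for 15, an alternative added after the data were seen. Over all genes line 3 was the highest for 25.7% and the lowest for 28.8%. For the 12 HSF1-inducible members elsewhere it was the highest array for 7, and their median was 0.12. Herpud1, Bag4, an Hsp70 exchange factor at 0.43, Fkbp8, an Hsp90 cochaperone at 0.35, Hsbp1, a binding partner of HSF1 at 0.52, and Hsf4, a heat shock factor known from the lens, at 0.28, also lie on chromosome 8. Not all listed genes of the chromosome read higher. Calr, on the list of other ER genes, was at -0.04, and Zfp42, a pluripotency marker, at 0.02.

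The genes whose 4 levels were most like those of Dnajb1 were found among 1503 bright genes with a range of at least 50% of its range, by the least sum of squared differences after centring over the 4 arrays. They were Cbfb, Gabarapl2, Vps36, Tcf15 and Ckap2, and all but Tcf15, on chromosome 2, lie on chromosome 8. Cbfb, nearest of all, stood at 10.92 in line 3, against 10.32, 10.23 and 10.30 in line 1, line 2 and the clone.

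Over all members, line 3 was the highest array for 24 of 72 (33.3%) and the lowest for 15 (20.8%). The shares were 25.7% and 28.8% over all genes, and 26.7% and 31.1% over bright genes. At an unadjusted p under 0.05 by limma, 10 of 72 members were higher and 5 lower in line 3, beside 5.8% and 5.76% of all genes, so the share lower was near that of all genes. The median difference of all members was -0.00180. Beside those given above, Dnajc9, a histone cochaperone, stood at 10.29 in line 3, against 9.95 ± 0.07 on the other arrays (SD, n = 3). Hspb2, a small heat shock protein of muscle, stood at 7.95 in line 3, against 7.69, 7.66 and 7.68 in line 1, line 2 and the clone. Both were clear of the other arrays, with adjusted p of 0.169 for Dnajc9 and 0.225 for Hspb2 by limma. Dnajb2, known from neurons, stood 0.26 higher, and Dnajc6 0.35, or 0.22 without the clone. On the lower side, Dnajc18 stood at 7.11 in line 3, against 7.43, 7.37 and 7.41 in line 1, line 2 and the clone. Dnaja3, a mitochondrial J protein, stood at 9.30 in line 3, against 9.61, 9.55 and 9.49 in line 1, line 2 and the clone. Its other bright probe set gave -0.08, with line 2 as the lowest array. Dnajc16 stood 0.29 lower, and its second, dim probe set gave -0.03, while Dnajb6, which keeps proteins from aggregating, stood 0.14 lower, and its other probe sets gave -0.25 to 0.10. None of these was called.

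By family in line 3, the median log2 difference was 0.24 for Hspd and Hspe, 0.12 for Dnaja, 0.05 for Hspa, 0.00 for Hspb, -0.01 for Dnajb, -0.04 for Dnajc and -0.08 for Hsp90. The Hspb median turned to -0.01 without the clone, and the Dnajc median to 0.02 with the probe sets of a gene averaged. TRiC and prefoldin, the cytosolic chaperonin and its partner, had line 3 as the highest array for 7 of 14 genes and a median of 0.05. Hsp90 cochaperones had a median of 0.00 over 16 genes, and Hsp70 exchange factors and Bag proteins -0.06 over 11. The 7 measured mitochondrial members had line 3 as the highest array for 2 and the lowest for 2, with a median of -0.04. These members and the genes of TRiC and prefoldin are all bright. Over bright genes line 3 was the highest array for 26.7% and the lowest for 31.1%. On the list of heat shock factors with Hsbp1, 4 genes were measured: Hsbp1 and Hsf4, on chromosome 8, differed by 0.52 and 0.28 in line 3, and Hsf2 and Hsf5, elsewhere, by 0.08 and 0.03. All but Hsbp1 were dim, and Hsf1 was not analysed here. No gene of these 5 lists was called. The lists were chosen with results of these data known, and none of this shows that a list stands apart from other genes.

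Between the NT-ESC lines and the iPSC clone, limma called no gene (0%), and the smallest adjusted p of any gene or member was 0.856. At an unadjusted p under 0.05, 3.46% of all genes were higher and 2.07% lower, and 5 members were higher and 0 lower. All 3 lines were above the clone for 23 of 72 members and below it for 15, where all genes gave 24.7% and 26.7%. The members' median log2 difference was 0.01, beside -0.00311 for all genes. As 1 clone array carries the comparison, its own spread is unknown and was taken to be that of the lines.

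Hspb8, a small heat shock protein that works with Bag3 in selective autophagy, stood at 8.37, 8.45 and 8.21 in NT-ESC lines 1, 2 and 3, against 7.92 in the clone. Dnajc6, or auxilin, which strips clathrin from vesicles with Hspa8, stood at 8.70, 8.41 and 8.77 in the lines, against 8.15 in the clone. Every line was above the clone for both, by 0.42 ± 0.11 for Hspb8 and 0.48 ± 0.15 for Dnajc6 on the log2 scale (SE), with unadjusted p of 0.0115 and 0.0216 by limma. The 2 other probe sets of Hspb8 gave 0.21 and 0.48. Hspb11 stood at 8.46, 8.33 and 8.30 in the lines, against 8.06 in the clone. Dnajc4 and Dnajb5 stood 0.24 and 0.21 higher than in the clone. Hspa5 stood 0.20 higher, with 1 of its other probe sets at -0.04. For Hspa1b the difference of 0.34 ± 0.24 (SE) was 0.15 without line 3, and for Dnajc9 the difference of 0.22 was then 0.11.

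The downward differences were smaller. Dnajc16 stood at 7.83, 7.99 and 7.64 in the lines, against 8.0 in the clone, a difference of -0.18 that was -0.09 without line 3. Dnajc2, a J protein of the ribosome, stood at 10.83, 10.96 and 10.87 in the lines, against 11.04 in the clone. Every line was below the clone for both, but the other Dnajc2 probe sets gave 0.02 to 0.10. Dnajc15, of the mitochondrial inner membrane, stood 0.13 lower, Hspb1 0.12 lower, and Dnajc24, which serves diphthamide synthesis, 0.10 lower. Without line 2 the differences were -0.08 for Dnajc15 and -0.05 for Dnajc24, and without line 3 that of Hspb1 was -0.08. Hspa8 stood 0.09 lower, and 0.01 higher without line 3. Of the other members, Hspa4, a cytosolic exchange factor, and Hspa9, the mitochondrial Hsp70, were above the clone in every line by 0.17 and 0.13 on average, and Hspa2 by 0.17. The 3 other bright probe sets of Hspa4 gave -0.07 to -0.03, and those of Hspa9 -0.02 to 0.30.

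**Figure D4:**
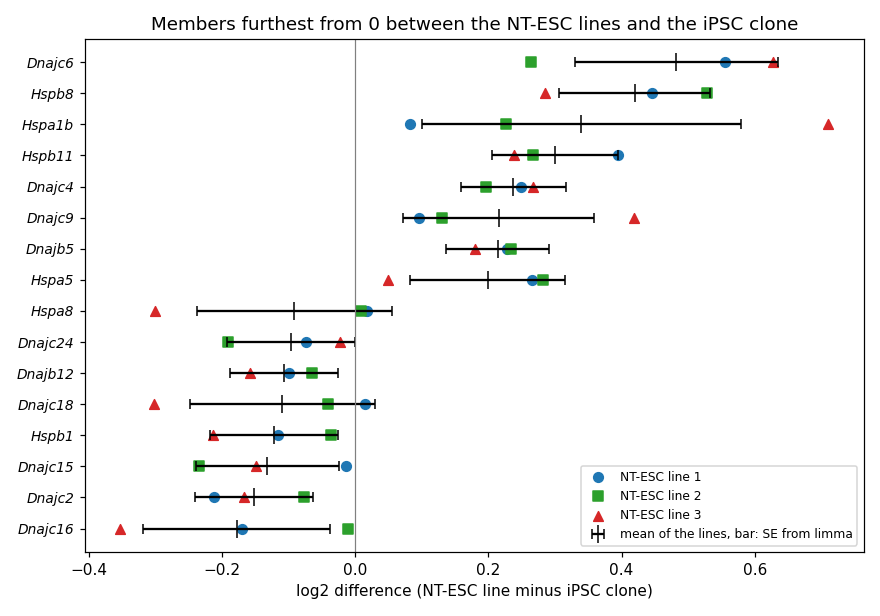
Log2 difference of each NT-ESC line from the iPSC clone for the members with the widest mean differences, with 1 point for each line, a tick at their mean and a bar for limma's SE. For Hspb8 and Dnajc6 all 3 points lie right of 0, and for Hspa8 line 3 alone lies left of it.

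Lines 1 and 2 gave no call when each was set against the other arrays (0 genes by limma, with 504 and 423 at an unadjusted p under 0.05). In line 1 the members furthest apart were Hspa4l at -0.35, Dnajc6 at 0.26 and Dnajb1 at -0.24, with line 3 among the arrays set against it. In line 2 they were Hspb8 at 0.28, Dnajb1 at -0.27 and Dnajc3 at 0.23, again with line 3 among the other arrays. Dnajb1 stood at 9.50 in line 2, against 9.53 in line 1, 9.57 in the clone and 10.23 in line 3. Hspb8 stood at 8.45 in line 2, against 8.37 in line 1, 8.21 in line 3 and 7.92 in the clone.

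Markers of other cells were read on the same arrays. All 10 pluripotency markers were bright, with summed levels of 121.8, 122.1 and 121.4 in NT-ESC lines 1, 2 and 3 and 121.2 in the clone. Sums hide single markers, and line 3 was the highest array for 2 of the 10 and the lowest for 3. Fgf4 stood at 10.83 in line 3, against 11.15, 11.43 and 11.24 in line 1, line 2 and the clone. Dppa5a stood at 13.34 in line 1, against 13.78, 13.78 and 13.76 in line 2, line 3 and the clone. Of 14 fibroblast and feeder markers 13 were measured and 11 were bright, and their summed levels were 110.5, 112.4 and 110.8 in the lines and 110.9 in the clone. Line 2 was the highest array for 7 of the 13, and line 3 was the highest for 2 and the lowest for 4. Over all genes line 2 was the highest array for 4288 of 18193, and line 3 was the highest for 25.7% and the lowest for 28.8%. At an unadjusted p under 0.05 by limma, 4 of the 13 were higher and 0 lower in line 2, beside 227 and 196 of all genes. The part of feeder cells in the differences was not tested. The gap between the 3′ and 5′ Actb control probe sets, which grows with RNA breakdown, was 0.28, 0.42 and 0.29 in the lines and 0.22 in the clone. Its part in the differences from the clone was not tested. In bulk RNA, fewer cells of a type and less RNA per cell cannot be told apart.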

How the data were processed

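The deposited table held the authors' log2 values for 45101 probe sets on 4 Affymetrix arrays. The normalization software was not given in the sources used here. Ratios, 2 to the power of each value, averaged 1 per array, so a value was read as the log2 of a log intensity over the array's mean, and levels were set back with an assumed mean of 7. A mean of 6 gives log2 differences of 0.60 in place of 0.70 for Dnajb1, and a mean of 7.86, which lifts the brightest probe set to 16, gives 0.79, with p-values unchanged. The design had assumed levels of this kind. RefSeq (GRCm38.p6) gave chromosomes and promoters, and all 72 member symbols were found there.

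Genes were tested with limma 3.58.1 under R 4.3.3, by two-sided moderated tests (lmFit, then eBayes) with Benjamini-Hochberg adjustment over 18193 genes and a threshold of 0.05, as the NT-ESC lines against the iPSC clone and as each line against the other 3 arrays, with 2 residual and 3.57 prior degrees of freedom. The fit was tested on simulated data. Precision is limited by the number of arrays. The members, lists and tests were chosen with earlier results of these data known. Members named with values are core chaperones, the brightest, dimmest and widest-ranging of each family, the 8 bright members furthest up and down in each comparison, those called, those on chromosome 8 and the 5 genes most like Dnajb1. Other pathway genes were taken from lists, and those named were chosen after their values were seen.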

Additional observations from a re-analysis of the deposited data

How the results depend on the processing

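No alternative called a gene between the NT-ESC lines and the iPSC clone, or in line 1 or line 2. In line 3 limma called 84 genes, and 15 on the deposited scale, 152 with a trended and robust prior, 55 with every probe set tested on its own, 168 with the probe sets of a gene averaged, 127 after quantile normalization and 0 to 0 with 1 of the other arrays left out, where fewer residual degrees of freedom remain. Of 16 members named for their difference in line 3, all 16 kept their direction in 11 alternatives. Against the clone 14 of 16 did, while with averaged probe sets Dnajc2 turned to 0.000158 and Hspa8 to 0.0545. Such members were picked for large differences, and several of the alternatives could not turn a direction. Other assumed means only rescale the levels, which can still change counts at the 1.5-fold limit. The trended and robust prior, leaving out dim genes and testing probe sets on their own left each member's difference as it was. Leaving out single lines gave Hspa8 -0.15 to 0.01, with 0.0138 without line 3. The cause of these changes was not tested. The members' median difference from the clone was 0.00167 on the deposited scale, 0.0269 without dim genes and 0.0106 to 0.0299 with a line left out. Their median in line 3 was 0.0216 with averaged probe sets and -0.0130 to 0.0152 with an array left out. The count of members below the clone in every line was 19 to 24 with a line left out (24 without line 1, 23 without line 3). The count lowest in line 3 was 21 to 24, with 24 without the clone. Fewer arrays to pass raise such counts. No paired analysis was possible because 1 clone is the parent of all the NT-ESC lines. Background correction and a slide block were not run, since the values were already summarised and no slide is given.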
